A study of Homo sapiens with 6 samples.

Results

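Integrins and laminins were followed in U87 cells with and without an shRNA against PRMT6. The members were chosen by gene symbol alone: every gene of the table whose symbol names an integrin alpha or beta subunit or a laminin alpha, beta or gamma chain. This gave 38 genes of 60612, made up of 18 integrin alpha subunits, 8 integrin beta subunits, 5 laminin alpha chains, 4 laminin beta chains and 3 laminin gamma chains.

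The cells are U87, an established line from a human glioblastoma. RNA was sequenced in 3 libraries of control cells (NC) and 3 libraries of PRMT6 knockdown cells (shPRMT6). NC cells carried a lentiviral Scramble shRNA and shPRMT6 cells a lentiviral shRNA against PRMT6, an enzyme that places asymmetric dimethyl marks on arginines of histones and other proteins. Both groups were infected with polybrene and grown in the same medium with serum, so all 6 libraries come from cells with a hairpin vector, and no library of cells without one was used here. All come from 1 cell line, and the sources used here do not name which PRMT6 shRNA was sequenced. The comparison of shPRMT6 with NC asks which RNAs differ after suppression of PRMT6.

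Integrins are receptors of the cell surface, each a pair of 1 alpha and 1 beta subunit, that bind the matrix outside the cell and link it to the actin cytoskeleton inside. The alpha subunit largely sets the ligand: some pairs read the RGD motif of fibronectin and vitronectin, others collagens, laminins or counter-receptors on other cells. Laminins are cross-shaped trimers of an alpha, a beta and a gamma chain that form the sheet of the basement membrane together with collagen IV, nidogens and perlecan. In glioblastoma both families are known from the vessel walls and from tumour cells that move along them.

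Depth was 56388161 to 75887696 counts a library, and counts are given below as CPM, which is the count relative to the scaled library size. For levels between genes the deposited FPKM was used, which also divides by transcript length. PRMT6 itself fell from a mean of 8.17 ± 1.08 to 4.46 ± 0.844 CPM (SD, n = 3), a log2 fold change of -0.87 (SE 0.187, edgeR adjusted p = 0.0225), and without NC replicate 1 (adjusted p = 0.0614), shPRMT6 replicate 1 (0.0588) or shPRMT6 replicate 2 (0.0713) it no longer passed the threshold. Among markers of the labelled cells, VIM, CD44 and NES were at mean FPKM of 1257, 46.1 and 6.54, while the glial marker GFAP was at 0.0300 and S100B had no counts. The methods call the libraries independent replicates, but p-values measure the spread between these 6 libraries only, and in bulk RNA fewer cells of a kind and less RNA per cell cannot be told apart.

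Of the 38 genes, 30 passed edgeR's filter on low counts. In shPRMT6 10 were higher and 3 lower at an adjusted p under 0.05, and 17 did not pass that threshold. Of all 18106 genes tested, 18.6% passed in either direction, 9.51% as higher and 9.06% as lower. The median log2 fold change was 0.21 over the 30 members and -0.01 over all genes tested. At a mean FPKM of 10 or more, 32.2% of genes passed, as did 5 of the 11 members at that level. DESeq2, run as an alternative, called 17 of the 30 members beside 31.9% of all genes. At the threshold of the study's methods, an absolute log2 fold change above 1 with an unadjusted p under 0.05, 3 members (LAMA4, LAMA3 and ITGAX) remained beside 5.92% of all genes. All 13 called members had CPM values that did not overlap between the groups, as did 18 of the 30 tested members and 40.2% of all genes tested. By family, 3 integrin alpha subunits rose and 2 fell of 14 tested, 2 integrin beta subunits rose of 6 tested, 3 laminin alpha chains rose of 5, and 1 laminin beta chain rose and 1 fell of 3. The other 8 members, ITGA2B, ITGA8, ITGAL, ITGAM, ITGB2, ITGB6, LAMB4 and LAMC3, had at most 15 counts in any library and were not tested.

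**Figure D1:**
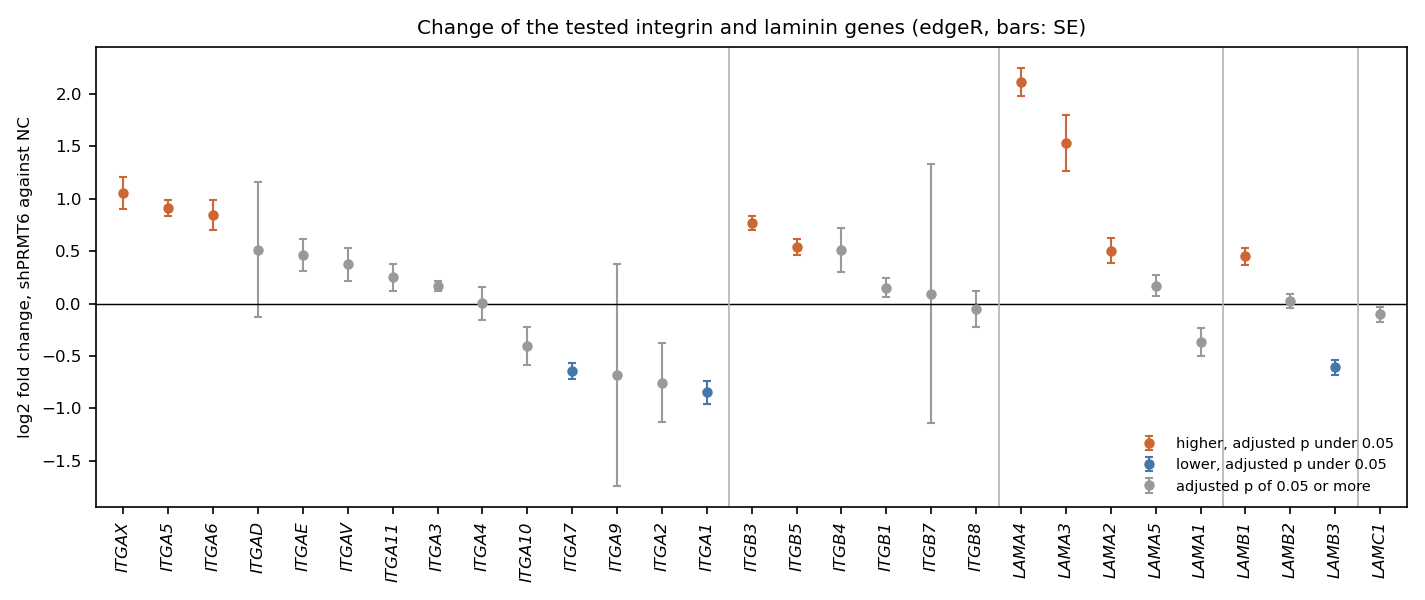
Log2 fold change in shPRMT6 against NC (vertical axis) of the tested members reported here, ordered within integrin alpha, integrin beta, laminin alpha and laminin beta genes, with LAMC1 on the right, where points are the edgeR estimates, bars their SE, and grey points did not pass an adjusted p of 0.05. LAMA4 is the highest point at 2.11 and ITGA1 the lowest called one at -0.85.

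By level, receptors for matrix led the integrins. The leukocyte alpha subunits and ITGA2B were at mean FPKM over all libraries of up to 1.61 (ITGAX). Some matrix receptor subunits were lower still, such as ITGA10 at 0.597. The alpha subunit with the highest level was ITGA5, the fibronectin receptor subunit, at a mean of 164 FPKM in NC, before ITGA3 at 80.8, ITGAV at 20.4 and ITGA2 at 20.2. ITGB1, the partner of most alpha subunits, led the beta subunits at 270 FPKM in NC, before ITGB3 at 36.8 and ITGB5 at 17.3, both partners of ITGAV. Among laminins LAMC1 was at 67.0 FPKM in NC, LAMB3 at 26.5, LAMB1 at 20.3, LAMB2 at 19.9 and LAMA5 at 6.23. Members that did not pass the test and were under 10 FPKM numbered 11, from 0.0188 to 6.63 FPKM over all libraries, with log2 fold changes from -0.68 to 0.51 and adjusted p from 0.0827 to 0.996. The plot of FPKM by library shows this spread.

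**Figure D2:**
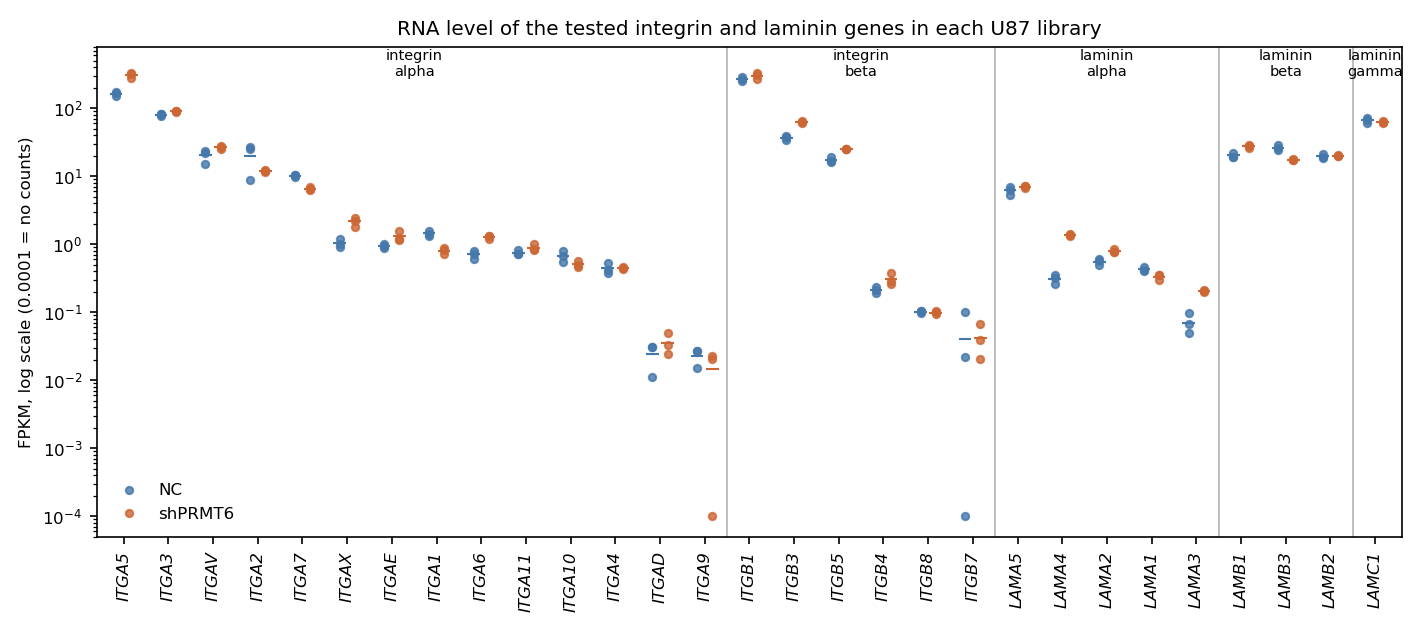
FPKM on a log axis (vertical) of the tested members reported here (horizontal) in 3 NC libraries (blue points) and 3 shPRMT6 libraries (orange points), with horizontal dashes at the group means and a gene without counts drawn at its deposited value of 0.0001. ITGB1 and ITGA5 are the highest genes, and ITGA9, ITGAD and ITGB7 lie near the bottom with scattered libraries.

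The RGD-reading receptors come first. ITGA5 (ENSG00000161638, chromosome 12 of GRCh38, 54395261 to 54419460, minus strand) encodes the alpha subunit that pairs with ITGB1 to bind fibronectin. Taken in the order of the replicate numbers, as throughout, its CPM was 1347, 1465 and 1510 in the NC libraries and 2460, 2917 and 2750 in the shPRMT6 libraries. Every shPRMT6 library lay far above every NC library, and the group means were 1441 ± 84.1 and 2709 ± 232 CPM. The gene rose 1.88-fold, a log2 fold change of 0.91 (SE 0.0783, edgeR adjusted p = 0.00119), and at 311 FPKM it stood at a level like that of ITGB1 (301 FPKM) in shPRMT6.

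ITGB3 (ENSG00000259207, chromosome 17, 47253846 to 47311816, plus strand), the beta subunit of the vitronectin receptor with ITGAV, read 256.5, 284 and 291 CPM in the NC libraries and 478, 459 and 482 in the shPRMT6 libraries. The groups were apart by more than their own ranges. The rise was 0.77 on the log2 scale (SE 0.0644, adjusted p = 0.00115). Of the 75-base stretches of its exons, 50.5% also lie in an overlapping gene model of the same strand, ENSG00000259753, which had 0 counts in every library. How reads on exons of both were counted is not given, so the effect of the overlap on the level of ITGB3 is not known.

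ITGB5 (chromosome 3, 124761948 to 124901418, minus strand), another partner of ITGAV, was at 148, 129 and 125 CPM in NC and 194.9, 191.5 and 197 CPM in shPRMT6. All 3 shPRMT6 libraries were higher and close to each other. Its log2 fold change came to 0.54 (SE 0.0772, adjusted p = 0.00581). ITGAV itself, the shared alpha subunit, had a mean of 20.4 FPKM in NC and 26.6 in shPRMT6 with no overlap between groups, but its log2 fold change of 0.38 (SE 0.158) did not pass in edgeR (adjusted p = 0.155) and passed in DESeq2 (adjusted p = 0.0320). ITGB1 had a log2 fold change of 0.15 (SE 0.0912, adjusted p = 0.309). Of its 75-base stretches, 8.27% are shared with a processed pseudogene. ITGB1P1, a pseudogene of ITGB1, had 5032 to 8073 counts a library and mean FPKM of 137 in NC and 121 in shPRMT6. Its log2 fold change was -0.19 (SE 0.0905, edgeR adjusted p = 0.2). How reads of the shared stretches were divided between the genes was not tested.

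The remaining RGD-binding alpha subunits were ITGA8, without a count in any library, and ITGA2B, the platelet subunit, with at most 8 counts. Of 3 platelet markers, GP9 and PF4 had no counts and GP1BA was at a mean of 0.0725 FPKM (log2 fold change 0.05, SE 0.562, adjusted p = 0.965). Of the subunits that activate latent TGF-beta with ITGAV, ITGB6 was not tested and ITGB8 had overlapping groups (log2 fold change -0.05, SE 0.171, adjusted p = 0.864). Of the subunits of the fibronectin and vitronectin receptors, ITGA5, ITGB3 and ITGB5 thus passed edgeR's test, and ITGAV and ITGB1 did not.

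The laminin-binding alpha subunits went different ways. ITGA6 (chromosome 2, 172427354 to 172506282, plus strand), which anchors epithelial cells to laminin through ITGB4 and marks many stem cells, was at 5.85, 6.48 and 4.87 CPM in NC and 9.63, 10.7 and 10.6 CPM in shPRMT6. The lowest shPRMT6 library was above the highest NC library, with a log2 fold change of 0.84 (SE 0.141, adjusted p = 0.00968). Genes on the opposite strand overlap 5.37% of its exon bases, the highest share among the called members. Neither the library kit as named nor the sources used here give the use of strand in counting, so reads of such overlaps cannot be told apart.

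ITGA7 (chromosome 12, 55684568 to 55716043, minus strand), best known as the laminin receptor subunit of muscle, fell. Its CPM was 81.1, 79.4 and 72.5 in NC and 53.0, 47.5 and 48.8 in shPRMT6. No library of one group came near the other group, with a log2 fold change of -0.64 (SE 0.0760, adjusted p = 0.00306). ITGA3, the third of this class, was at 80.8 FPKM in NC and 91.4 in shPRMT6. Its groups did not overlap, yet the log2 fold change of 0.17 (SE 0.0479) narrowly missed the threshold (edgeR adjusted p = 0.0538). DESeq2 (adjusted p = 0.000652), a filter of at least 10 counts in every library (0.0493), limma on FPKM with pseudocounts of 1 (0.0463) and 0.1 (0.0468), and leaving out NC replicate 2 (0.0420) each put it past the threshold. In the other 10 of 15 alternatives it did not pass, with an adjusted p of up to 0.173 (edgeR without shPRMT6 replicate 1). ITGB4 was low, at 0.213 FPKM in NC, with a log2 fold change of 0.51 (SE 0.210, adjusted p = 0.150).

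Of 4 collagen-binding alpha subunits, 1 passed the test, as lower, and their median log2 fold change was -0.58. ITGA1 (ENSG00000213949, chromosome 5, 52787896 to 52959210, plus strand), a receptor for collagen IV and laminins, was at 29.9, 34.9 and 30.7 CPM in NC and 19.4, 15.9 and 17.9 CPM in shPRMT6. Each shPRMT6 library lay well below each NC library. The gene fell by 0.85 on the log2 scale (SE 0.111, adjusted p = 0.00427). It shares 1046 exon bases of the same strand with another gene model and with PELO, which lies inside it and had a log2 fold change of 0.10 (SE 0.0834, adjusted p = 0.479).

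ITGA2, the neighbour 30115 bases downstream of ITGA1 and the main collagen I receptor subunit, was uneven between NC libraries. It read 82.8, 252 and 232 CPM in NC and 117, 108 and 111 CPM in shPRMT6. NC replicate 1 was below all shPRMT6 libraries, and the other NC libraries were far above them. Over all 6 libraries it had a log2 fold change of -0.75 (SE 0.379, adjusted p = 0.222), and without NC replicate 1 it was -1.11 (adjusted p = 0.00230). By the share of genes far below both other libraries of the group, NC replicate 1 did not stand apart. Of 9527 genes with a mean CPM of 10 or more, 0.766% had in NC replicate 1 less than 0.5 times the level of either other NC library. The share was 0.651% to 0.808% in the other libraries by the same measure within their own group. Higher values and smaller shifts are not seen by this measure. ITGA10 and ITGA11 were at log2 fold changes of -0.40 (SE 0.184, adjusted p = 0.184) and 0.25 (SE 0.128, adjusted p = 0.232).

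Among integrins of leukocytes, ITGAX (chromosome 16, 31355134 to 31382997, plus strand), the CD11c subunit of dendritic cells and macrophages, was at 7.76, 8.60 and 9.89 CPM in NC and 20.7, 15.3 and 18.8 CPM in shPRMT6. The groups were clearly apart. It rose 2.08-fold, a log2 fold change of 1.06 (SE 0.153, adjusted p = 0.00592), from 1.04 to 2.18 FPKM. ITGB2, the only known partner of ITGAX, had 4 counts in 1 NC library and 0 in the 5 others. ITGAM, next to ITGAX on chromosome 16, and ITGAL, farther away on it, had at most 11 and 10 counts in any library. Of the leukocyte markers, CD3E had no counts, PTPRC and CD14 were at mean FPKM of 0.00182 and 0.00900, and CSF1R was at 2.10 with a log2 fold change of -0.02 (SE 0.132, adjusted p = 0.932). Their summed FPKM was 1.78 to 2.31 in NC and 2.03 to 2.24 in shPRMT6, so the ranges of the groups overlapped. Next to ITGAX on its other side, ITGAD was at 0.0245 FPKM in NC and did not pass, and ITGAE, ITGA4, ITGA9 and ITGB7 did not pass either.

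Laminin alpha chains, which carry the site that integrins bind, rose in 3 of 5. LAMA4 (ENSG00000112769, chromosome 6, 112108760 to 112254939, minus strand), the alpha chain of vascular and mesenchymal basement membranes, had the largest fold change of all tested members. Its CPM was 4.60, 5.09 and 3.78 in NC and 19.9, 19.1 and 19.3 in shPRMT6. The shPRMT6 libraries were tightly grouped far above the NC libraries. The rise was 4.33-fold, a log2 fold change of 2.11 (SE 0.135, adjusted p = 0.000510). By p it was number 31 of the 1721 genes that rose. Of 4 endothelial markers, TEK passed as higher (1.39 to 2.13 FPKM, log2 fold change 0.60, SE 0.138, adjusted p = 0.0288) but in only 1 of 6 fits with 1 library left out (highest adjusted p = 0.0968), PECAM1 did not (0.312 to 0.511 FPKM, adjusted p = 0.0544), and VWF and CDH5 were at mean FPKM of 0.0296 and 0.00122. Their summed FPKM was 1.49 to 1.93 in NC and 2.56 to 2.76 in shPRMT6. The part of these markers in the rise of LAMA4 was not tested.

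LAMA3 (chromosome 18, 23689443 to 23956222, plus strand), an alpha chain of epithelial basement membranes that pairs with LAMB3, was scarce. It read 1.72, 0.881 and 1.15 CPM in NC and 3.74, 3.49 and 3.60 CPM in shPRMT6. The shPRMT6 libraries were all higher, by a log2 fold change of 1.53 (SE 0.269, adjusted p = 0.0112). Its lowest library held 67 counts, the fewest of any called member.

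LAMA2 (chromosome 6, 128883141 to 129516569, plus strand), the chain of muscle and peripheral nerve, was at 6.12, 7.10 and 7.31 CPM in NC and 9.31, 9.41 and 10.4 CPM in shPRMT6. The groups were apart but the step was small, 0.50 on the log2 scale (SE 0.122, adjusted p = 0.0336). It was the only called member that did not pass in any of the 6 fits with 1 library left out (highest adjusted p = 0.110), while each of the other 12 passed in all 6. LAMA5, the widespread alpha chain of adult tissue and the highest here, was at 6.23 FPKM in NC and 7.03 in shPRMT6 (log2 fold change 0.17, SE 0.1004, adjusted p = 0.302). LAMA1, the embryonic chain, had a log2 fold change of -0.37 (SE 0.135, adjusted p = 0.112).

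Of the beta chains, LAMB1 rose and LAMB3 fell. LAMB1 (chromosome 7, 107923799 to 108003255, minus strand), the general beta chain, was at 185, 214 and 184 CPM in NC and 251, 270.5 and 277 CPM in shPRMT6. All shPRMT6 libraries were higher, with a log2 fold change of 0.45 (SE 0.0797, adjusted p = 0.0114). LAMB3 (chromosome 1, 209614870 to 209652466, minus strand), the beta chain found with LAMA3 in epithelia, was at 144, 137 and 158 CPM in NC and 97.6, 95.6 and 94.5 CPM in shPRMT6. It was lower in every shPRMT6 library, by a log2 fold change of -0.61 (SE 0.0696, adjusted p = 0.00267). LAMB2 did not differ detectably (19.9 and 20.3 FPKM, log2 fold change 0.02, SE 0.0669, adjusted p = 0.866).

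LAMC1, the gamma chain of most laminins, did not pass (log2 fold change -0.10, SE 0.0698, adjusted p = 0.359). LAMA3 and LAMB3, chains of the same epithelial laminin, moved in opposite directions: LAMA3 rose and LAMB3 fell. The FPKM ratio of LAMB3 to LAMA3 was 401 ± 120 in NC and 84.7 ± 1.84 in shPRMT6 (SD, n = 3), so by FPKM LAMB3 was the higher chain in both groups. Of 4 epithelial markers, CDH1 passed as lower (0.0839 to 0.0181 FPKM, adjusted p = 0.0428) on 4 to 58 counts a library, but in only 1 of 6 fits with 1 library left out (highest adjusted p = 0.128), KRT5 had no counts, and EPCAM and KRT14 were at mean FPKM of 0.206 and 0.0840 and did not pass. The summed FPKM of these markers was 0.259 to 0.489 in NC and 0.176 to 0.432 in shPRMT6, and their part in these changes was not tested.

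The make-up of each family followed from these changes, and is given as a description with no test of its own. Summed over alpha subunits, FPKM went from 302 ± 28.2 to 455 ± 24.8, and the share of ITGA5 in that sum from 54.5% ± 1.79 to 68.2% ± 2.16 (SD, n = 3). ITGA3, which was not lower in FPKM, took 26.9% ± 1.53 of the sum in NC and 20.2% ± 1.52 in shPRMT6, and ITGA7 took 3.42% ± 0.464 and 1.46% ± 0.166. Among beta subunits ITGB1 held 83.2% ± 1.00 in NC and 77.1% ± 2.28 in shPRMT6, with ITGB3 at 11.4% ± 1.02 and 16.3% ± 1.67. LAMA4 held 4.16% ± 0.868 of the laminin alpha sum in NC and 14.1% ± 0.694 in shPRMT6, while LAMA5 held 81.9% ± 1.87 and 72.2% ± 1.07. The leading beta chain was LAMB3 in NC, at 39.7% ± 2.24, and LAMB1 in shPRMT6, at 42.5% ± 1.33, although the sum over beta chains was nearly the same (66.6 ± 3.25 and 65.6 ± 1.45 FPKM). RNA shares do not give the amounts of assembled receptors or trimers, which were not measured.

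**Figure D3:**
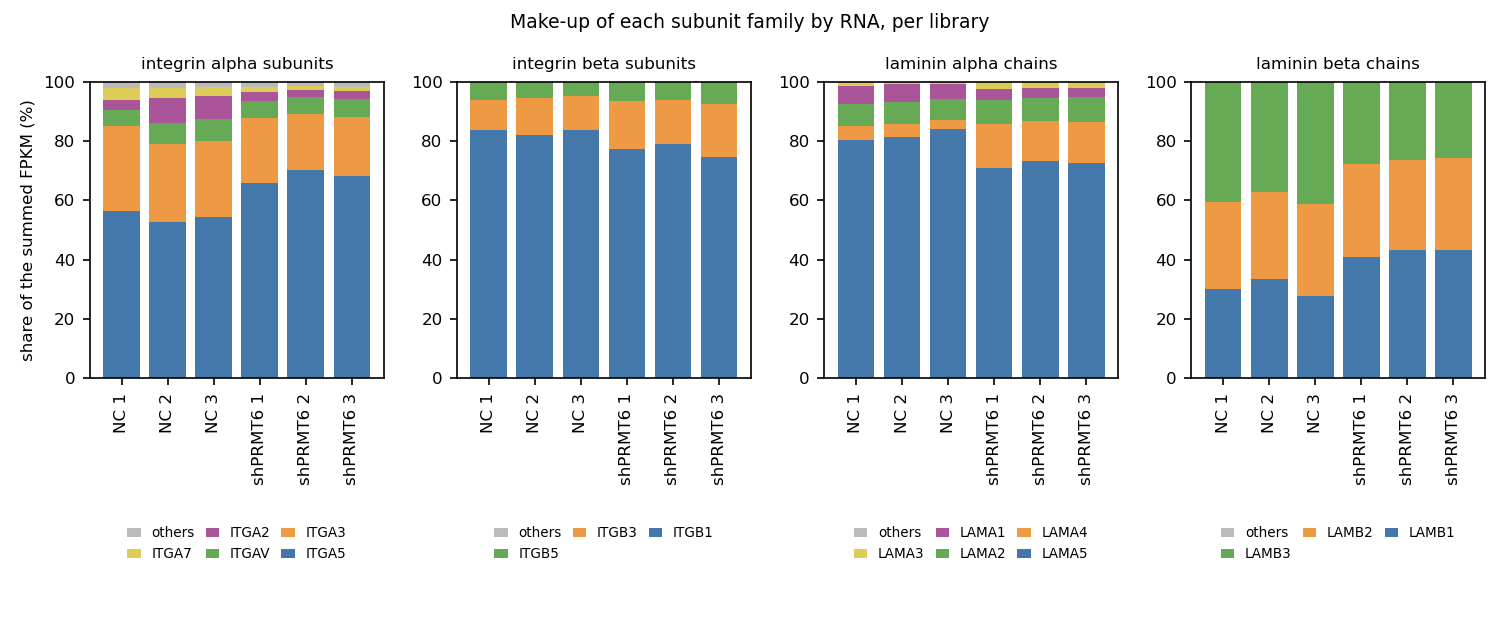
Stacked bars of the share of each gene in the summed FPKM of its family (vertical axis, percent) in the 6 libraries (horizontal axis), for integrin alpha subunits, integrin beta subunits, laminin alpha chains and laminin beta chains. ITGA5, ITGB3, LAMA4 and LAMB1 take a larger share in each shPRMT6 library than in any NC library.

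The shRNA itself can pair with other RNAs through its seed, bases 2 to 8 of the strand that guides silencing, so the hairpins designed against PRMT6 are shown with the target bases that pair with the seed in capitals.
shPRMT6 #1: gcccagtttgagaTGCCTTAt
shPRMT6 #2: caccggcattctgAGCATCTt
shPRMT6 #3: cacggacgtttcaGGAGAGAt
For each gene the longest annotated 3' UTR of at least 50 bases was searched on its own strand for these 7 letters. The site of hairpin #2 lay in 17.2% of 13259 tested genes with such a UTR and in 4 of the 30 members: ITGA1, ITGB3, ITGB8 and LAMC1. It lay in 24.3% of the genes that fell and 12.75% of those that rose. The same shares were 14.1% and 16.7% for hairpin #1 and 19.3% and 22.6% for hairpin #3, all given as descriptions. ITGA1 held 5 copies in its 6759 bases, a number reached by 2 of the 13259 genes. These copies are shown from 5' to 3' with 10 bases on either side and the site in capitals, numbered by their first base in the UTR.
ITGA1, base 549: gaatacatttAGCATCTttgtgttggg
ITGA1, base 1911: attcatactcAGCATCTgtgactacta
ITGA1, base 4633: cgaacaaatcAGCATCTttgatcctca
ITGA1, base 4725: aatgtgaagtAGCATCTggagtctctt
ITGA1, base 4767: tgtcccctacAGCATCTccacccagga
Of the other members, with 1 copy each, ITGB3 rose, and ITGB8 and LAMC1 did not pass. The sites of hairpins #1 and #3 lay in 16.1% and 22.1% of these genes and in 5 and 6 members, and of the 3 members that fell ITGA7 held that of hairpin #1 and LAMB3 held none of the sites. The hairpin that was sequenced is not named, and the part of the sites in the fall of ITGA1 or in any other change was not tested.

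Promoter sequence, from 250 bases before to 50 after the start in RefSeq on GRCh38.p14, was matched for 26 of the 38 members, not for ITGB3 or ITGAX, among others. It was searched on both strands for 6 motifs. The letters TGANTCA of AP-1, a factor of growth and injury responses, were in 7.76% of 27305 promoters and in those of 2 members, ITGA5 and LAMA3, both of which rose. They are shown because these are the members with a match, in capitals, on the strand of the gene. The LAMA3 start used lies far inside the annotated gene, which begins at base 23689443. Counts of the whole gene do not tell its starts apart.
ITGA5, chr12:54419256-54419282, minus strand: ctccccgcgtTGAGTCAttcgcctctg
LAMA3, chr18:23872885-23872911, plus strand: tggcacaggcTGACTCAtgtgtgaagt
LAMA3, chr18:23872941-23872967, plus strand: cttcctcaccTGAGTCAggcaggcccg
The letters GGAATG of TEAD factors were in 14.05% of promoters and in those of 4 members, ITGA5, ITGB1, ITGA10 and LAMA2, of which 2 rose and 2 did not pass. The ITGB1 start used also lies inside its annotated gene. GGGCGG, bound by SP1, was in 44.6% of promoters and 14 of the 26. Among members, CACGTG (an E-box, in 7.44% of all promoters) and TATAAA (in 12.0%) were found in ITGA6 alone, and the CArG box of SRF (in 1.29%) in ITGB6 alone. A match describes these letters and not the binding of a factor.

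Around these families, 92 other genes of the pathway were read from 4 lists. Of 81 tested, 24 were higher and 14 lower, which is 46.9%, and the median log2 fold change of the 81 was 0.02. Beside this stood 18.6% of all tested genes and 32.2% of those averaging 10 FPKM or more. The lists were not split by level, and the part of level in the difference was not tested. The lists were chosen with earlier results of these data known, so their shares are descriptions.

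Ligands and matrix partners moved in both directions. Of 18 tested integrin ligands other than laminins, 6 rose and 3 fell, with a median log2 fold change of 0.01. SPP1 (osteopontin), an RGD ligand of ITGAV pairs, rose by 1.89 on the log2 scale (SE 0.1002, adjusted p = 0.000308), and LTBP1, which holds latent TGF-beta in the matrix, rose by 1.17 (SE 0.0808, adjusted p = 0.000660). FN1, fibronectin and the ligand of ITGA5, fell by 0.72 (SE 0.0802, adjusted p = 0.00246), from 143 to 86.9 FPKM, so that RNA of the receptor subunit and of its ligand moved in opposite directions. COL1A2, a chain of collagen I, rose by 0.33 (SE 0.0408, adjusted p = 0.00342). COL1A1, the other chain of collagen I, did not pass (log2 fold change 0.07, SE 0.0594, adjusted p = 0.480).

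Of 16 tested basement membrane partners of laminins, 7 rose and 1 fell, with a median of 0.47. SPARC, a collagen-binding matrix protein, rose by 0.76 (SE 0.0575, adjusted p = 0.000880), COL15A1, a collagen of the basement membrane zone, by 1.59 (SE 0.132, adjusted p = 0.00114), and COL4A6, a collagen IV chain, by 0.81 (SE 0.0814, adjusted p = 0.00187). The collagen IV chains COL4A3 and COL4A5 also passed as higher, but in only 2 and 3 of 6 fits with 1 library left out. COL4A2 (mean FPKM 0.148) and COL4A4 did not pass, and COL4A1, with at most 8 counts in any library, was not tested. The one that fell was HSPG2 (perlecan), at a log2 fold change of -1.30 (SE 0.138, adjusted p = 0.00213).

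Membrane partners of integrins and other laminin receptors had 2 higher and 5 lower of 14 tested, with a median of -0.09. The heparan sulfate co-receptors SDC4 and SDC1 fell by 1.67 (SE 0.0600, adjusted p = 0.000175) and 0.89 (SE 0.101, adjusted p = 0.00256) on the log2 scale. PLAUR, the urokinase receptor, fell by 0.52 (SE 0.0825, adjusted p = 0.00783), and CD9, a tetraspanin, rose by 0.45 (SE 0.0621, adjusted p = 0.00502).

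Intracellular adaptors of integrins had 9 higher and 5 lower of 33 tested, with a median of 0.02. RSU1, a partner of the complex of ILK, PINCH and parvin, rose by 0.49 (SE 0.0656, adjusted p = 0.00474), and PTK2B, a kinase related to FAK, rose by 0.74 (SE 0.131, adjusted p = 0.0116). VCL (vinculin), which ties talin to actin, fell by 0.35 (SE 0.0560, adjusted p = 0.00813), and the adaptor CRKL fell by 0.29 (SE 0.0518, adjusted p = 0.0124), passing in 3 of 6 fits with 1 library left out (highest adjusted p = 0.0660). The plot of these lists shows the tested genes of each list on both sides of 0.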

How the data were processed

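Total RNA of 3 NC and 3 shPRMT6 samples of U87 cells was made into libraries with a NEBNext Ultra RNA kit and sequenced. The authors deposited, for each gene and library, a raw read count without normalization and an FPKM value, given as 0.0001 where there was no read. The submitters' processing notes name HISAT2, HTSeq 0.13.5 and GRCh38; the annotation and the use of strand are not given in the sources used here. The 12 count and FPKM columns were all used, and samples were grouped by their labels.

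Counts were tested with edgeR 4.0.16 in R 4.3.3 (quasi-likelihood test with TMM scaling and no replicate block). Its low-count filter used the 2 conditions and left 18106 genes, over which p was adjusted by Benjamini-Hochberg. SE is that of the log2 fold change. Levels between genes and shares of summed FPKM have no test. Between replicates, chi-square per degree of freedom was 53.0 to 86.3, so none was a second copy of another. The programs were checked on simulated data with known changes. With 3 against 3 libraries an exact permutation test of a single value cannot go below p = 0.1, so none was run.

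The members and the lists of pathway genes and cell type markers were chosen with earlier results of these data known. Every member enters the counts, and the values of 1 member and 1 marker are not reported here. Members past an adjusted p of 0.05 get full values, those not past it are named if their mean FPKM is at least 10, and the rest are given by ranges. Of each pathway list the 4 genes with the smallest p are named. The other chains of collagen I and IV are named beside them and were added after their values were seen. Members not past the threshold and under 10 FPKM that the text names, and marker values, were chosen after their values were seen or as background to a class.

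Positions, overlaps, shared 75-base stretches and 3' UTRs come from GENCODE 29 on GRCh38, read with Python 3.11.15, and hairpin sequences from the study's list of designed oligonucleotides.

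Alternative fits used DESeq2 1.42.0 and its size factors, edgeR unscaled or scaled by upper quartiles, a filter of 10 counts in each library or of 1 count in some library, a block for the replicate number, and limma 3.58.1 on FPKM. For limma a pseudocount of 1 or 0.1 was added before log2 among genes averaging 1 FPKM or more, or a pseudocount of 1 with no such filter. Each library was left out in turn. Calls were also counted at an adjusted p under 0.01 and at the study's own limit (log2 fold change beyond 1 in either direction, p under 0.05, taken as unadjusted).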

Additional observations from a re-analysis of the deposited data

How the results depend on the processing

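Of 279 values of 19 members under alternatives, 257 kept their direction and side of the threshold, 14 lost the threshold, 7 gained it and 1 reversed, LAMB2, at -0.0243 without NC replicate 1 (range with 1 library left out -0.0243 to 0.0766). The losses were ITGA1, ITGA6, ITGAX, ITGB5 and LAMB1 with limma without a filter, which tests all 60612 genes, and LAMA2 there, with at least 1 count in any library, with the replicate block and in each fit with 1 library left out. The 10 members that rose were 5 with limma without a filter and 3 at the threshold of the methods, and the 3 that fell were 0 at that threshold, since none reached a log2 fold change of -1; DESeq2 called 13 and 4. Samples with the same number did not deviate together (correlations -0.00776, -0.0583 and -0.0302), so the numbers were not taken as pairs. With the replicate block 9 members rose and 3 fell, 23 instead of 38 pathway genes passed, 1858 instead of 3362 genes passed, and PRMT6 was at -0.88 (adjusted p = 0.0803). Limma without a filter called 12 pathway genes and 1073 of all genes, with PRMT6 at -0.47 (adjusted p = 0.159). An adjusted p under 0.01 left 21 pathway genes and 1320 of all genes, the threshold of the methods 10 and 1072, and DESeq2 called 5782 genes. With 1 library left out, 25 to 35 pathway genes and 1755 to 3183 genes passed, 25 pathway genes without any 1 of the shPRMT6 libraries and 1755 genes without shPRMT6 replicate 2. PRMT6 then ranged from -1.0004 to -0.73. The cause of these differences was not tested. The 8 untested members were left out by the low-count filter, and their highest library held 15 counts.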

Other observations

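Genes related to integrins in name or position were looked at after their values had been seen. ITGBL1, a secreted protein with integrin beta-like repeats that is no receptor subunit, went from a mean of 31.5 to 56.4 CPM, a log2 fold change of 0.84 (SE 0.161, edgeR adjusted p = 0.0152), and passed in 3 of 6 fits with 1 library left out. ITGB1BP2 (melusin), a muscle protein that binds the tail of ITGB1, had 82 counts over the NC libraries and 0 over the shPRMT6 libraries, at least 27.2-fold lower against a floor of 3 counts over the group (adjusted p = 0.0132, past the threshold in 5 of 6 such fits). ITGB1BP1, which restrains ITGB1 through its tail, was at 106 and 114.5 CPM and did not pass (log2 fold change 0.12, SE 0.131, adjusted p = 0.596). ITGB3BP, the divergent transcript ITGB1-DT, and the antisense RNAs ITGA6-AS1 and ITGA9-AS1 did not pass either.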
